A study of Oryza sativa with 4 samples.

Results

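The nucleosomes described here form one-direction runs, which are stretches in which at least 3 neighbouring nucleosomes had all moved the same way along the chromosome in *oschz1-1* relative to WT. The members were chosen by the measured shift between the genotypes. Nucleosomes of the 12 chromosomes with a summit in both maps were sorted by their WT summit, the position of highest occupancy. A run was then a stretch of consecutive nucleosomes with WT summits at most 250 bp apart, each displaced by at least 30 bp and all in one direction. There were 10844 such runs with 34815 nucleosomes, out of 1116111 nucleosomes with a summit in both maps and 1690300 nucleosomes listed in all. A shift towards higher coordinates is called forward and a shift towards lower coordinates reverse. Neither term refers to a gene or to a direction of transcription.

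The data are MNase-seq profiles of rice seedlings, with 2 libraries of WT and 2 of *oschz1-1*. The titles of the WT libraries give the strain as NIP, and the cultivar named in the study's methods is Nipponbare (*Oryza sativa* ssp. *japonica*). All plants were 30 days old and were kept in long days, the light phase of 14 h at 30 °C and the dark phase of 10 h at 28 °C. The *oschz1-1* plants are a single transgene-free line made with CRISPR/Cas9, in which a 1-nt deletion in *OsChz1* leads to a premature stop codon, and the WT plants carry the intact gene. Chromatin was cross-linked with formaldehyde before digestion, and powdered leaf material holds many cell types, so that each map is an average over them. One table with 1 value per genotype and nucleosome, and none per replicate, was analysed. No shift could therefore be set against the spread between replicates, no test was made, and the depth behind a value is unknown.

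In a nucleosome, DNA is wrapped around an octamer of the histones H2A, H2B, H3 and H4. Micrococcal nuclease cuts the linker DNA between nucleosomes and leaves the wrapped DNA, so that the fragments mark where nucleosomes sit. Neighbouring nucleosomes often form regularly spaced arrays, in which the place of each one constrains the places of the next, and chromatin remodelers are known to slide nucleosomes along DNA. OsChz1 is a histone chaperone that binds H2A-H2B and H2A.Z-H2B dimers, the parts of the nucleosome that are added last and exchanged most readily. Whether neighbouring nucleosomes moved together in the mutant is the question that the runs address.

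Forward and reverse runs were about equally frequent. Of the 10844 runs, 5456 were forward, with 17512 nucleosomes, and 5388 were reverse, with 17303 nucleosomes, so that 50.3% were forward. The runs held 3.12% of the nucleosomes with a summit in both maps. A displacement of at least 30 bp was common outside runs as well. It was found at 495502 nucleosomes, which is 44.4% of those with a summit in both maps, with 22.2% displaced forward and 22.2% displaced reverse. The runs contained 7.03% of the displaced nucleosomes. Because the same shifts define the runs, these shares describe the selection and measure nothing beyond it.

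Most runs were short. A run of 3 nucleosomes, the minimum, was found 9013 times, a run of 4 was found 1476 times and a run of 5 was found 284 times. Runs of 6, 7 and 8 nucleosomes numbered 51, 14 and 6, and no run was longer. The distance from the first to the last WT summit had a median of 370 bp and ranged from 205 to 1220 bp. All runs together spanned 4186790 bp.

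The longest runs extended over about 1 kb of DNA. The 5 longest forward and the 5 longest reverse runs were taken by number of nucleosomes, with ties resolved by the larger median displacement and then by position, and they lay on 9 chromosomes of the rice genome (build MSU7). No gene annotation of this build was used, so the genes at these runs are not named.

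**Figure D1:**
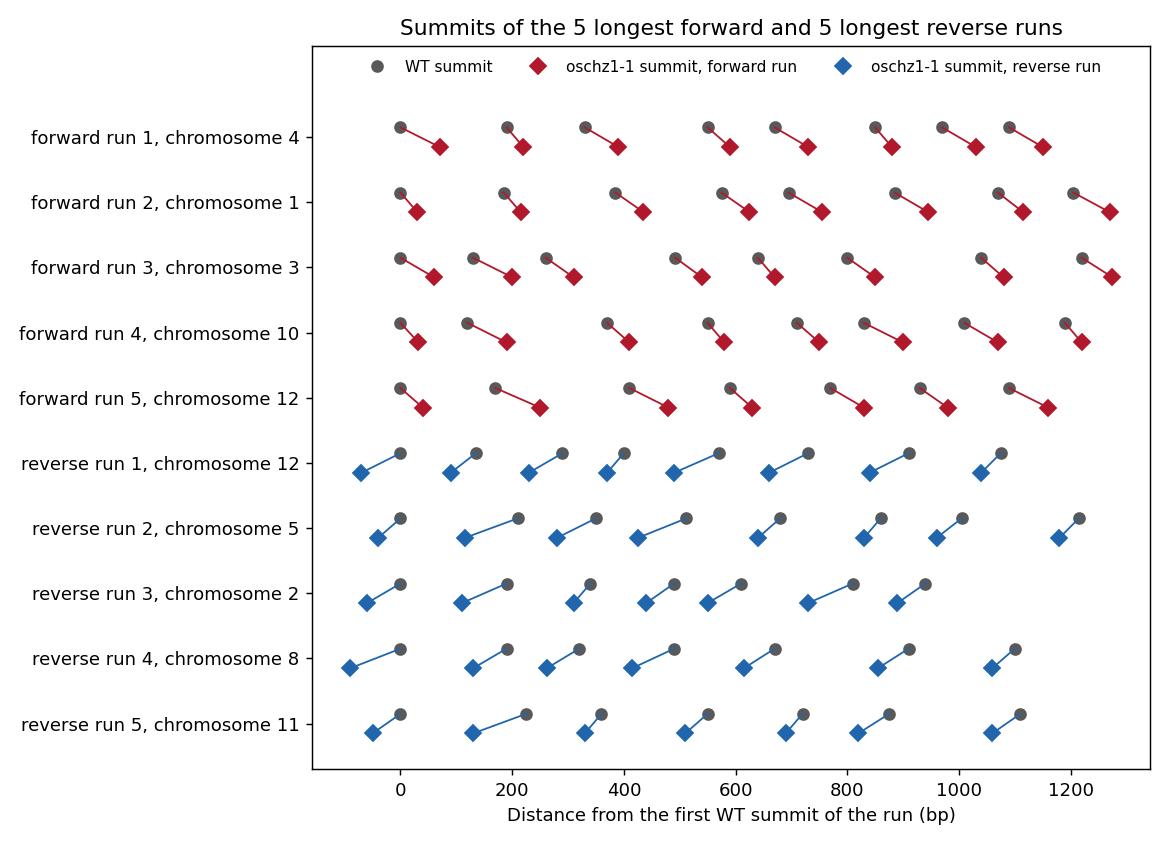
Summits of the 5 longest forward runs (red) and the 5 longest reverse runs (blue), 1 row per run. The x axis gives the distance in bp from the first WT summit of the run; grey circles are WT summits, coloured diamonds are *oschz1-1* summits, and lines join the summits of one nucleosome. All diamonds of a row lie to the same side of their circles, at distances of 30 to 95 bp that differ from nucleosome to nucleosome.

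Of the forward runs with 8 nucleosomes, that with the largest median displacement (60 bp) lay on chromosome 4, from 15056951 to 15058041. Its 8 nucleosomes were displaced by 70, 30, 60, 40, 60, 30, 60 and 60 bp. The WT summits lay a median of 140 bp apart. The median was 170 bp between neighbours of all runs and 180 bp between all neighbours up to 250 bp apart with a summit in both maps. The summit occupancy was 15.4 to 29.8 in WT, with a median of 21.5, and 16.7 to 26.1 in *oschz1-1*, with a median of 22.1. The occupancy values of the genotypes thus overlapped, with 3 nucleosomes higher and 5 lower in the mutant. Occupancy here is the signal at the summit as deposited, and how it was scaled between the genotypes is not given in the sources used here.

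The forward run on chromosome 1, from 28024326 to 28025531, had shifts of 30, 30, 50, 50, 60, 60, 45 and 65 bp. The displacement was smallest at the first pair of nucleosomes and largest at the last one. Its span was 1205 bp in WT and 1240 bp in *oschz1-1*. The median fuzziness, a score for the spread of fragment positions around the nucleosome, was 49.3 in WT and 54.6 in *oschz1-1*. It was the largest difference of median fuzziness among the 10 runs. The forward run on chromosome 3, from 15185221 to 15186441, had the largest span of all runs (1220 bp). Its summits moved by 60, 70, 50, 48, 30, 50, 40 and 55 bp, and 1 nucleosome found in a single genotype lay between its members.

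The forward run on chromosome 10, from 9237221 to 9238411, was displaced by 32, 70, 40, 30, 40, 70, 60 and 30 bp. Summit occupancy was higher in *oschz1-1* at 7 of its 8 nucleosomes and lower at 1, from 21.1 in WT to 10.9 in the mutant. The forward run on chromosome 12, from 8358631 to 8359721, held 7 nucleosomes. Its displacements were 40, 80, 70, 40, 60, 50 and 70 bp, and no pair of its WT summits was less than 160 bp apart. This spacing sets it apart from the other 9 runs, which had 1 to 4 such close pairs each.

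Among the reverse runs, that on chromosome 12, from 12649031 to 12650106, had the largest median displacement of those with 8 nucleosomes (65 bp). Its shifts were -70, -45, -60, -30, -80, -70, -70 and -35 bp. The third nucleosome had an occupancy of 26.7 in WT and 11.5 in *oschz1-1*, a log2 ratio of -1.15 after a pseudocount of 1 was added. The other 7 nucleosomes had ratios from -0.34 to 0.51, so the drop did not extend over the run. The reverse run on chromosome 5, from 17410901 to 17412116, moved by -40, -95, -70, -87, -40, -30, -45 and -35 bp. Its occupancy was higher in the mutant at 4 nucleosomes and lower at 4.

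The 3 remaining reverse runs held 7 nucleosomes each. They lay on chromosome 2 from 30805881 to 30806821, on chromosome 8 from 9670361 to 9671461 and on chromosome 11 from 23327161 to 23328271. Their median displacements were 60, 58 and 50 bp. In the last of these, the second nucleosome moved by -95 bp and its occupancy was 17.7 in WT and 36.8 in *oschz1-1*, while the fourth and the fifth were lower in the mutant. Within the long runs, nucleosomes of higher and of lower occupancy in the mutant thus stood side by side.

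The nucleosomes of a run seldom moved by the same distance. The median displacement in a run had a median of 50 bp over all runs, with quartiles of 40 and 60 bp, and reached 95 bp. Within a run, the largest and the smallest displacement differed by a median of 30 bp. They differed by at most 10 bp in 1657 runs (15.3%), by at most 20 bp in 4138 runs (38.2%) and were equal in 190 runs. All displaced nucleosomes outside runs, those of mixed stretches included, also had a median displacement of 50 bp. In runs of 3, the mean displacement was 50.3 bp at the rear, 51.4 bp in the middle and 51.4 bp at the leading end. The means of the 51 runs of 6 nucleosomes were less even and went from 57.2 bp at the rear to 47.9 bp at the leading end.

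Because displacements differed, spacing was kept only roughly. Between neighbours of a run, the WT summits lay a median of 170 bp apart and the *oschz1-1* summits a median of 170 bp. The distance between a pair of neighbours changed by a median of 15 bp in absolute size. It changed by at most 10 bp in 10246 of 23971 pairs (42.7%), against 24.4% of all neighbours up to 250 bp apart. Both shifts of a pair in a run have the same sign, so the rule itself limits the change and bears on this contrast. In stretches of at least 3 nucleosomes that had moved by at most 10 bp, which limits the change too, the share was 79.9%. Stretches of at least 3 displaced nucleosomes that held no run, with directions mixed, served as a set with the same lower limit of displacement. There were 13074 such stretches with 42280 nucleosomes. Their median displacement was 45 bp, against 50 bp in runs, and the distances between their neighbours changed by a median of 70 bp. That a shared direction keeps distances closer than mixed directions follows from the rule. The whole span of a run was longer in *oschz1-1* in 4855 runs, equal in 1429 and shorter in 4560.

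Many runs stood on the limit of 30 bp. Summit coordinates ended in the digit 1 at 86.5% of the WT and 85.8% of the *oschz1-1* summits. In all, 102599 of the 495502 displaced nucleosomes were displaced by exactly 30 bp. In 5139 runs (47.4%) the smallest displacement was 30 bp. A run has at least 3 nucleosomes, so runs include such a displacement more often than single nucleosomes have it. The share that this alone would give was not computed, and 47.4% is not read as a trait of the runs. Just outside the rule, 1482 stretches would have been runs but for 1 nucleosome displaced by 25 to 29 bp. Stretches broken by a nucleosome displaced by less than 25 bp are not in this count. With a limit of 20 bp there were 21292 runs. Among all nucleosomes with a summit in both maps, 29590 were displaced by exactly 25 bp and 22920 by exactly 35 bp.

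The number of runs was set beside the number found after the shifts had been permuted among nucleosomes of the same chromosome and of the same decile of fuzziness. This is a reference for the count and no test, and no p was computed. Over 100 permutations there were 8311 runs on average, with a lowest count of 8038 and a highest of 8543. The 10844 observed runs were 1.30 times the permuted mean. The ratio was 1.31 for forward and 1.30 for reverse runs. It grew with length, from 1.27 for runs of 3 to 1.41 for 4, 1.80 for 5 and 2.05 for 6 nucleosomes. For runs of 7 and 8, 14 and 6 were observed, against permuted means of 3.68 and 0.78. A ratio that grows with length can follow from an excess of same-direction neighbour pairs alone, since longer runs hold more pairs. The permuted shifts were also not held to the minimum distance between summits described below. Whether longer runs exceed what the pairs give was not tested.

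**Figure D2:**
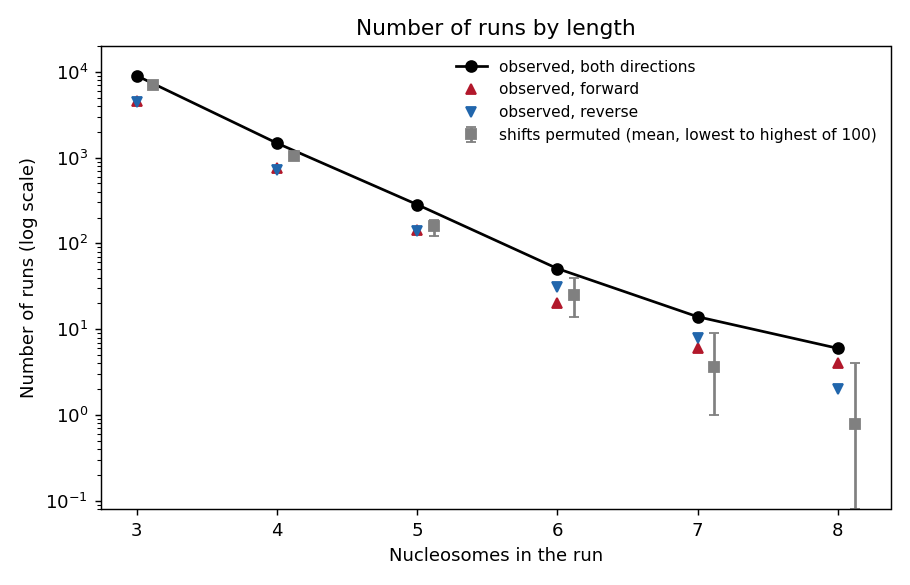
Number of runs (log scale) by the number of nucleosomes in the run. Black circles are all observed runs, red and blue triangles are the forward and reverse ones, and grey squares are the means of 100 permutations with bars from the lowest to the highest count (a count of 0 is drawn at the foot of the axis). Observed counts lie above the grey bars at each length, from 9013 against a permuted mean of 7078 at 3 nucleosomes to 6 against 0.78 at 8.

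Displaced nucleosomes stood next to each other less often than in the permutations. The permutations did not keep the minimum distance between summits described below, so this comparison cannot decide whether displaced nucleosomes cluster. Stretches of at least 3 displaced nucleosomes of whatever direction numbered 23857, which was fewer than the permuted mean of 27413 (lowest 27136). Likewise, 124983 neighbour pairs had both members displaced, fewer than the permuted mean of 135932. Of these pairs, 78124 (62.5%) moved in the same direction, against 49.7% to 50.4% in the permutations. The remaining pairs were 32032 diverging ones, which moved apart, and 14827 converging ones, which moved towards each other.

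The share of pairs with one direction varied with the distance between the nucleosomes. In either deposited map no summits lay less than 100 bp apart. A converging pair with displacements of at least 30 bp each comes closer by at least 60 bp. It could therefore not be listed where the WT summits were less than 160 bp apart, and 0 of the 41726 displaced pairs at these distances were converging. Larger displacements need wider WT distances, so some converging pairs could not be listed beyond 160 bp either. The share of converging pairs was 3.74% at 161 to 180 bp and 13.3% at 181 to 200 bp. The permuted shifts were not held to the minimum of 100 bp. With the WT distance, the share of pairs in the same direction was 61.2% at 100 to 120 bp, 70.4% at 141 to 160 bp, 65.1% at 181 to 200 bp and 48.2% at 241 to 250 bp. From 100 to 120 bp to 241 to 250 bp, the share of diverging pairs went from 38.8% to 16.3% and that of converging ones from 0% to 35.5%.

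Distances averaged over both genotypes treat the maps alike. A pair that moves in opposite directions changes its distance by at least 60 bp, so its mean distance cannot be less than 130 bp in these maps. For larger displacements this limit is wider. By the mean distance, 100% of the displaced pairs at 100 to 120 bp and 93.4% at 121 to 140 bp moved in the same direction. The share was 68.6% at 141 to 160 bp, 56.1% at 161 to 180 bp and 53.1% at 181 to 200 bp. From 201 bp on it was 50.1%, then 48.5%, 47.6%, 47.3% and 48.5% in steps of 20 bp up to 300 bp. Displaced neighbours at these wider distances thus moved in the same and in opposite directions about equally often. A run held at least 1 pair at a mean distance of at most 160 bp in 7219 cases (66.6%), and all its pairs lay more than 200 bp apart in 640 cases (5.90%). The same shares were not computed for other stretches, and a run has several pairs. By single pairs, 35.1% of those in runs had WT summits less than 160 bp apart. This was so for 31.0% in mixed stretches and 27.6% of all neighbours up to 250 bp apart.

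**Figure D3:**
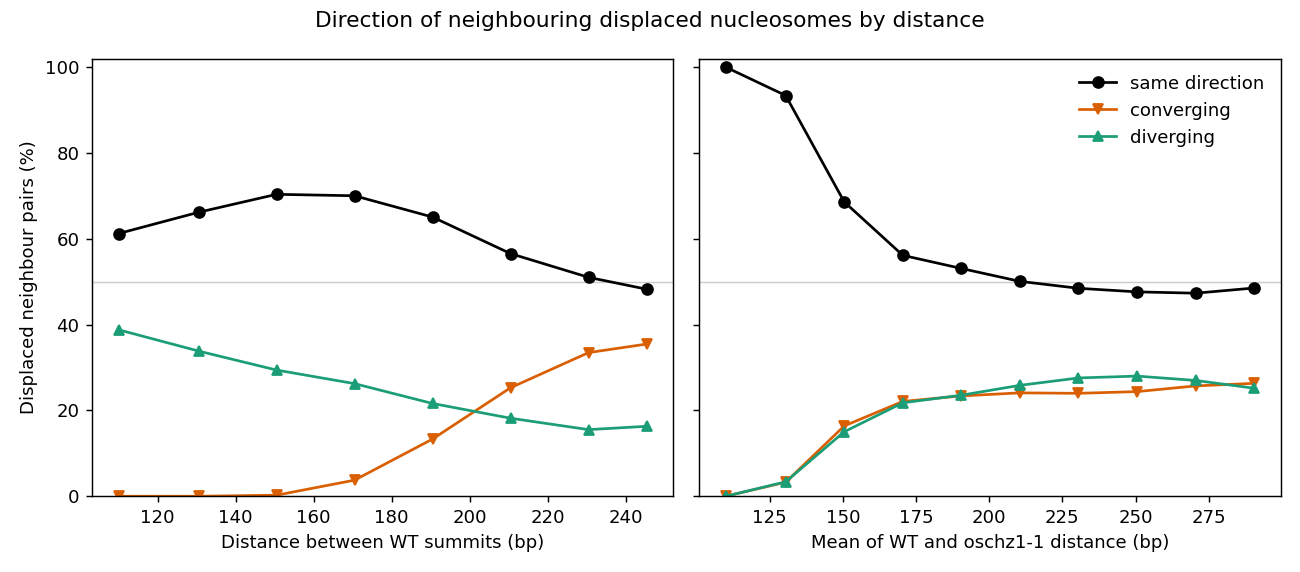
Direction of neighbouring nucleosomes that were both displaced by at least 30 bp, as a share of the pairs in each step of distance. The left panel uses the distance between WT summits up to 250 bp and the right panel the mean of the WT and *oschz1-1* distances up to 300 bp, with points at the middle of each step and a grey line at 50%. In the right panel the share of pairs with the same direction falls from 100% at 100 to 120 bp to 50.1% at 201 to 220 bp.

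When the runs were sought again with neighbouring WT summits 200 to 250 bp apart, 1155 runs were found, against 1004 to 1151 (mean 1069) in 20 permutations. The ratio to the permuted mean was then 1.08. With neighbours at least 150 bp apart there were 6095 runs and a ratio of 1.23. In both settings the minimum distance between summits still barred some converging pairs. The setting of 200 bp was chosen after the distances had been seen. The part of the minimum distance between summits in the total excess was not tested.

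A run ends, by definition, where the next nucleosome is too far away or fails the limit. At 11081 of the 21688 run ends (51.1%), the next nucleosome with a summit in both maps was more than 250 bp away. At 2838 ends (13.1%) it was displaced by at least 30 bp the other way. At 3304 ends (15.2%) it had moved by less than 30 bp in the same direction, at 1642 (7.57%) it had not moved, and at 2823 it had moved by less than 30 bp the other way. The second to sixth nucleosomes beyond an end shared the direction of the run, where they had moved at all, in 45.2% to 48.1% of cases behind the run and in 51.6% to 53.8% ahead of it. Their mean shift along the direction of the run was -4.16 to 3.20 bp, against displacements of at least 30 bp inside it.

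Some runs enclosed a nucleosome that was listed in a single genotype. This was so in 1092 runs (10.1%), with 583 such nucleosomes of WT alone and 556 of *oschz1-1* alone. Of the intervals between neighbours in a run, 4.75% held one, against 7.25% of all intervals up to 250 bp and 13.5% of those in mixed stretches. The intervals in runs were also shorter. Their median WT distance was 170 bp, against 180 bp for all intervals up to 250 bp and for mixed stretches. The part of this spacing in the shares was not tested. No shift of more than 99 bp was listed in the map, so larger displacements were not measured.

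Occupancy in the runs was close to that of the map in both genotypes. Over the 34815 nucleosomes, the median summit occupancy was 17.3 in WT, with quartiles of 14.0 and 21.3, and 17.2 in *oschz1-1*, with quartiles of 13.9 and 21.2. The median log2 ratio was -0.0075, with quartiles of -0.32 and 0.30. Over all nucleosomes with a summit in both maps, the medians were 17.2 in WT and 17.1 in *oschz1-1*. The quartile ranges of the genotypes overlapped almost wholly.

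Changes of occupancy of at least 2-fold were rare in the runs. The occupancy was at least 2-fold higher in *oschz1-1* at 441 nucleosomes of the runs (1.27%), against a background of 1.14% of all nucleosomes with a summit in both maps. It was at least 2-fold lower at 522 nucleosomes (1.499%), against a background of 1.32%. The shares in mixed stretches were 1.29% and 1.49%. All these shares were near the background. Forward and reverse runs had median log2 ratios of -0.0074 and -0.0079.

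Nucleosomes of the runs were fuzzier than the average nucleosome in both genotypes. Their median fuzziness was 55.4 in WT and 55.4 in *oschz1-1*, against 52.9 and 53.0 over all nucleosomes with a summit in both maps. It was 54.9 and 55.2 in mixed stretches and 53.9 and 53.9 at other displaced nucleosomes. In runs of at least 3 nucleosomes that had moved by at most 10 bp, of which there were 16511, the medians were 51.1 and 51.2. The mutant was not fuzzier than WT in the runs, as the median difference was -0.019 with quartiles of -3.29 and 3.34. A rise of at least 10 was found at 863 nucleosomes of the runs (2.48%) and a fall of at least 10 at 839 (2.41%), against backgrounds of 2.85% and 2.59%. These shares were 3.42% and 2.62% in mixed stretches and 3.54% and 3.31% at other displaced nucleosomes.

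The share of nucleosomes in runs increased with fuzziness. It was 0.254% in the lowest decile of mean fuzziness, 2.65% in decile 5 and 7.05% in the highest. The share displaced by at least 30 bp also rose, from 15.2% in the lowest decile to 57.8% in the ninth and 56.3% in the highest. Among the displaced nucleosomes, 1.67% of the lowest and 12.5% of the highest decile were in runs. The permutations described above kept the deciles apart. With mean occupancy, the displaced share fell from 51.2% in the lowest to 29.5% in the highest decile. The share in runs varied less, from 2.81% in the lowest to 3.45% in the eighth and 2.43% in the highest decile.

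**Figure D4:**
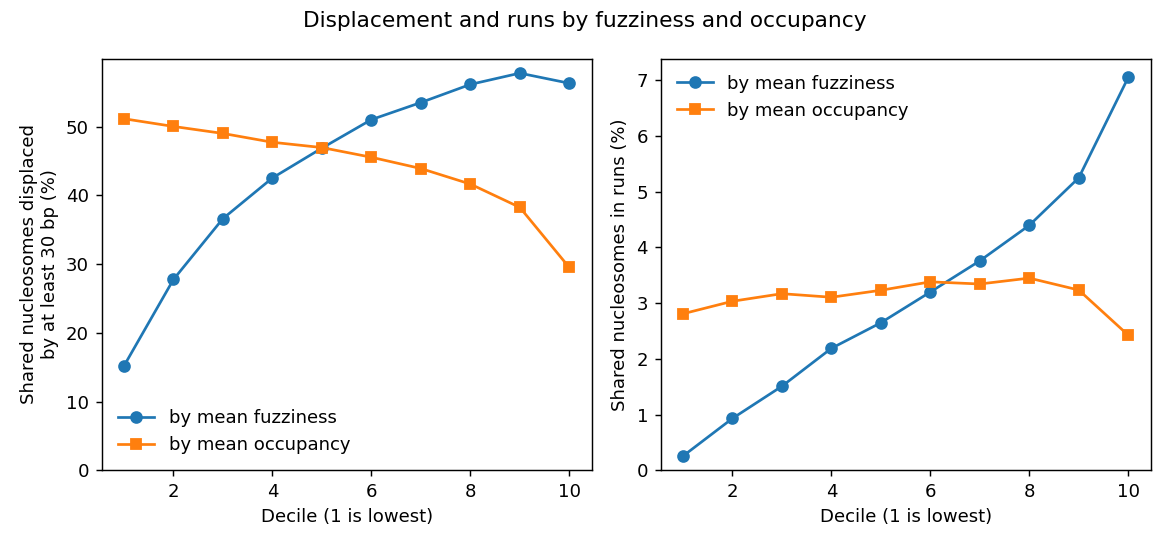
Share of nucleosomes displaced by at least 30 bp (left) and share in runs (right), in deciles of mean fuzziness (circles) and mean occupancy (squares) of both genotypes. From the lowest to the highest decile of fuzziness the share in runs rises from 0.254% to 7.05%, while over the deciles of occupancy it stays between 2.43% and 3.45%.

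Runs were found on all 12 chromosomes in similar density. The share of nucleosomes in runs was between 2.84% on chromosome 3 and 3.62% on chromosome 7, with 3.41% on chromosome 11 as the next highest. Chromosome 7 also had the highest share of displaced nucleosomes (45.8%, against 43.8% to 44.9% on the other chromosomes). Its 1013 runs were 1.33 times their permuted mean, within the range of 1.26 to 1.39 over the 12 chromosomes. Between 47.3% of the runs, on chromosome 11, and 52.0%, on chromosome 9, were forward.

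Along the chromosomes, runs were denser in the middle than at the ends. Each chromosome was divided into 5 equal lengths. The first and last of these had 2.94% and 2.82% of their nucleosomes in runs, and the middle one had 3.52%. The middle length was above both end lengths on 9 of 12 chromosomes. The median fuzziness moved with this pattern, from 52.9 and 52.8 at the ends to 53.3 in the middle one, and so did the displaced share, from 43.8% and 43.4% to 45.5%. Their part in the pattern was not tested.

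In windows of 1000000 bp with at least 1000 nucleosomes, a median of 3.07% of the nucleosomes were in runs, with a lowest share of 1.61% and a highest of 5.59% over 375 windows. The highest share was in the window of chromosome 5 from 12000001 to 13000000, where 144 of 2575 nucleosomes were in runs. It was followed by the window of chromosome 11 from 13000001 to 14000000 (5.46%) and that of chromosome 7 from 13000001 to 14000000 (5.23%). Another pair of high windows adjoined on chromosome 7, from 6000001 to 8000000, with 5.13% and 5.09%. The lowest share was in the window of chromosome 8 from 1000001 to 2000000, with 46 of 2849 nucleosomes. Over the windows, the share in runs had a Spearman correlation of 0.58 with the median fuzziness and of 0.25 with the median WT occupancy. With the share displaced by at least 30 bp, which the rule itself uses, it was 0.51. The windows come from the same pair of maps and are not independent samples.

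**Figure D5:**
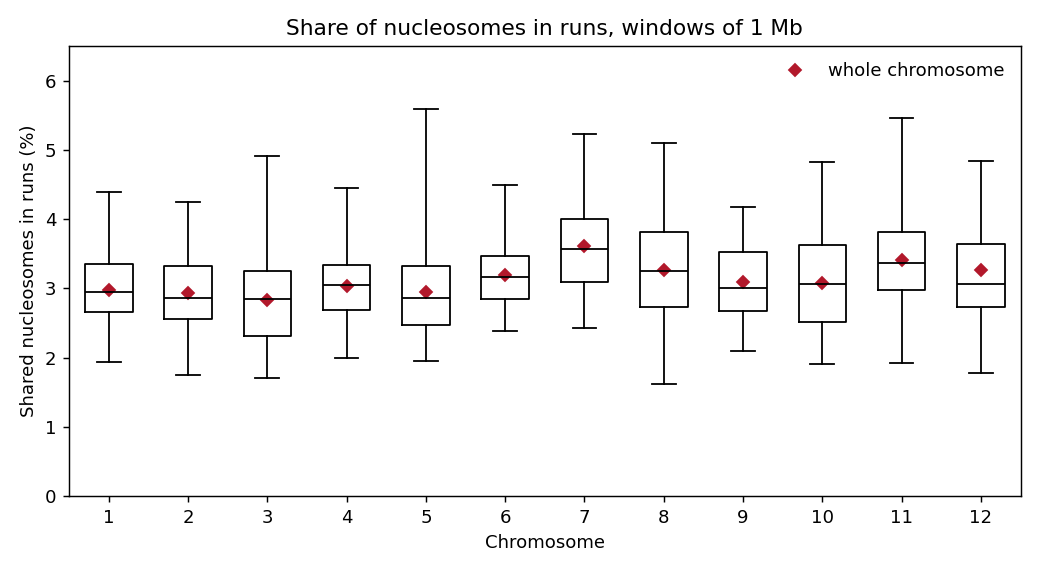
Share of nucleosomes in one-direction runs in 375 windows of 1000000 bp, by chromosome. Boxes show the quartiles and the median of the windows, whiskers reach the lowest and highest window, and red diamonds give the share over the whole chromosome. Chromosome shares lie between 2.84% and 3.62%, and single windows between 1.61% and 5.59%.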

How the data were processed

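MNase-seq libraries of WT and *oschz1-1* seedlings (2 each) were analysed from 1 deposited table of 17 columns, with 0 columns of values left unmapped. The authors mapped cleaned paired reads to MSU7 with Bowtie2 2.3.4.1, filtered the alignments by mapping quality and for duplicates (Samtools), and called nucleosomes with DANPOS, whose options are not given in the sources used here. Summit occupancy is a signal deposited by the authors, with 1 value per genotype, whose scaling is not given in the sources used here. Fuzziness and point values were used as the scores the authors deposited, and summit positions are base coordinates. Control columns were read as WT and treated ones as *oschz1-1*. Further columns hold the authors' own p-values and FDR for differences of occupancy and fuzziness, and these were not used.

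Runs were found with Python 3.11.15, numpy 2.4.6 and pandas 2.3.3, and figures were drawn with matplotlib 3.10.9. Limits were 30 bp, 250 bp and 3 nucleosomes. Log2 ratios had a pseudocount of 1, and changes were counted from a log2 ratio of 1 or a fuzziness difference of 10. Shifts were permuted 100 times (20 for alternatives) within chromosome and decile of mean fuzziness. In a simulation of 100000 nucleosomes, the search for runs found all 1000 runs put in. The other simulated shifts all lay below the limit, unlike those of the maps, so this checks only the search itself. Members, settings and alternatives were chosen with earlier results of these data known. Named runs were the 5 longest of each direction. A genome sequence and gene annotation of MSU7 were not used here, so genes and sequences are not given. No confidence interval is printed, since the depth is unknown.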

Additional observations from a re-analysis of the deposited data

How the results depend on the processing

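No paired analysis was possible because only 1 value per genotype was analysed, and leaving out single replicates could not be done either. The 10844 runs became 21292, 5313 and 2100 with a displacement of at least 20, 40 and 50 bp. They became 1831 and 355 with at least 4 and 5 nucleosomes, 6178 with neighbours at most 200 bp apart and 6095 with neighbours at least 150 bp apart. Each of these counts follows from the stricter or looser limit. With an occupancy of both genotypes at or above the lower quartile of mean occupancy (14.6), 2080 runs were left, as fewer nucleosomes (585340) were kept. The count stayed within 1.5 times the main one with neighbours at most 300 bp apart (13886), with runs ended by a nucleosome of a single genotype (9934) and with the order of *oschz1-1* summits (10786). Settings added after seeing the data gave 1155 runs with neighbours at least 200 bp apart and 9831 without chromosome 7. The ratio of observed runs to the permuted mean was between 1.08, with neighbours at least 200 bp apart, and 1.89, with at least 5 nucleosomes.

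The forward share (50.3%) became 49.0% with at least 5 nucleosomes, 49.0% above the lower quartile, 49.2% with neighbours at least 150 bp apart and 51.3% with at least 200 bp. The share of displaced pairs in the same direction (62.5%) became 59.1%, 65.8% and 69.3% with 20, 40 and 50 bp. It was 66.8% and 59.6% with neighbours at most 200 and 300 bp apart, 62.0% and 54.5% with at least 150 and 200 bp, 61.5% above the lower quartile, 66.4% without pairs that enclose a nucleosome of a single genotype and 63.0% in the order of *oschz1-1* summits. The median log2 occupancy ratio (-0.0075) was -0.0011 above the lower quartile. At the 5389 nucleosomes of the runs with a listed position of largest difference, the median log2 ratio of the point values was -1.33. The point value was higher in *oschz1-1* at 2549 of them and lower at 2840. Over the 131963 nucleosomes with a summit in both maps and such a position, the median was -1.21, with 64939 higher and 67024 lower. Point values are taken where the difference is largest, so each median falls among the slightly more numerous lower values. In the runs, the point values had medians of 11.5 in WT and 10.1 in *oschz1-1*. With pseudocounts of 0.1 and 5 the median log2 ratio of summit occupancy was -0.0080 and -0.0061. The median fuzziness difference was -0.066 above the lower quartile.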

Other observations

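Runs that lay next to each other moved mostly apart. Of 55 successive runs with at most 250 bp between them, 39 diverged, with a reverse run followed by a forward one, 15 converged and 1 kept its direction. Neighbouring runs of the same direction are joined into 1 run by definition, unless a nucleosome displaced by less than 30 bp or in the other direction lies between them, so the rule itself limits the number of same-direction pairs. The part of the minimum distance between summits (100 bp) in the split of diverging and converging runs was not tested. With more than 250 and up to 1000 bp between them, 198 of 370 successive runs (53.5%) had the same direction, up to 10000 bp 1315 of 2696 (48.8%) and beyond 10000 bp 3962 of 7711 (51.4%). The direction of a run was thus about equally often shared and not shared with the next one.

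One feature of the deposited table limits the use of its point values, which give the occupancy of each genotype where the difference is largest. The same pair of values, 8.27 in WT and 13.2 in *oschz1-1*, stands at 151727 nucleosomes, all on chromosome 1, while the next most frequent pair that is not 0 in both stands at 382. Point values were therefore read only at the 251658 listed nucleosomes with such a position. In the runs, 5389 nucleosomes (15.5%) had one, against 11.8% of all nucleosomes with a summit in both maps and 6.09% of those in runs that had moved by at most 10 bp. The share was higher in the other displaced sets, with 16.0% in mixed stretches and 18.4% at other displaced nucleosomes. It is thus not a trait of the runs in particular.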
